A study of Homo sapiens with 6 samples.

Results

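The guanylate-binding proteins GBP1 to GBP7 were taken by gene symbol from the deposited table of estimated counts, in which they were 7 of 19899 genes. The RNA came from COV434, an established human cell line that the study places among its models of the hypercalcemic small cell tumour of the ovary (SCCOHT). These cells lack the protein BRG1, the product of SMARCA4, which drives nucleosome movement by SWI/SNF complexes with energy from ATP. Control cells (n = 3) received an empty plasmid, pCMV-neo or pCDNA3-neo in the study's methods, and BRG1 cells (n = 3) the plasmid PBJ5-BRG1. In each case pBABE-puro, which carries puromycin resistance, was given together with it. Both groups therefore carried plasmid DNA and were kept on puromycin at 2 to 3 µg/ml for 3 days, starting 24 hours after transfection. The transfected population was harvested as a whole, without isolating clones, so BRG1 levels in single cells are not known. In bulk RNA, more expressing cells and more RNA per cell cannot be told apart.

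Guanylate-binding proteins are large GTPases of the dynamin superfamily that cells make in response to interferons, above all interferon gamma. They assemble on the membranes of intracellular bacteria and of the vacuoles that hold them. GBP1 binds lipopolysaccharide there and forms a coat that GBP2, GBP3 and GBP4 join and that recruits caspase-4, the start of pyroptosis. GBP1, GBP2 and GBP5 end in a motif to which a lipid (prenyl) anchor is added, and GBP2 and GBP5 are also known to lower the activity of the protease furin. Interferon gamma acts at GAS elements and through IRF1, whereas type I interferons such as interferon beta act through a complex with STAT2 and IRF9 at interferon-stimulated response elements (ISRE).

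The 7 genes lie side by side on the short arm of chromosome 1 (GRCh38, gene models of GENCODE release 44). GBP6 is read from the plus strand and the others from the minus strand. From low to high coordinates the order is GBP3 (89006679 to 89022894), GBP1 (89051882 to 89065360), GBP2 (89106132 to 89150456), GBP7 (89131742 to 89176009), GBP4 (89181144 to 89198942), GBP5 (89256189 to 89272860) and GBP6 (89364059 to 89388160). GBP2 and GBP7 overlap on the same strand in these models.

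The promoters of GBP1, GBP3 and GBP4 are shown because they hold the ISRE letters, spelled GAAA, any 2 bases and GAAA again, searched on both strands. They were copied from the RefSeq promoter table (GRCh38.p14), which matched 5 of the 7 members, GBP1, GBP3, GBP4, GBP6 and GBP7. Each sequence runs 5′ to 3′ on the minus strand, from 250 bases before the RefSeq start to 25 bases after it, and the capitals mark the motif matches.
GBP1, chr1:89065184-89065458, minus strand: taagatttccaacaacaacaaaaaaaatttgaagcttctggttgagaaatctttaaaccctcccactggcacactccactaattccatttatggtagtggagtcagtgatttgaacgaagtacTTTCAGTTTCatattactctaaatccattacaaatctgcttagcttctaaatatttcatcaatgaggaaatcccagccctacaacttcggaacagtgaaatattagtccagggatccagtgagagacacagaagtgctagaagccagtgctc
GBP3, chr1:89022842-89023116, minus strand: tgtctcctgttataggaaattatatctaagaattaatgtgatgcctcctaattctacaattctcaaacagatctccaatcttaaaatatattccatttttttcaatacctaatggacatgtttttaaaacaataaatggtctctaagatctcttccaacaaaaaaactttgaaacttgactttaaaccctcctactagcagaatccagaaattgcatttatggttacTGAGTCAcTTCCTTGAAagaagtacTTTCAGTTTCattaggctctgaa
GBP4, chr1:89198918-89199192, minus strand: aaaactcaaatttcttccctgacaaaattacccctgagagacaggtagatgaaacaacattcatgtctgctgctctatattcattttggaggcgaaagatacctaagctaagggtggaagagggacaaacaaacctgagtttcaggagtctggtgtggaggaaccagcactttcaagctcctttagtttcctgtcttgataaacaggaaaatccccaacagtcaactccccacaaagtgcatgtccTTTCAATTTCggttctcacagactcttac

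The ISRE letters were present in 3 of the 5 members with a promoter entry, against 3.57% of the 35116 promoters in the table. In GBP1 and GBP3 the matched run was TTTCAGTTTC, at chr1:89065326-89065335 and chr1:89022855-89022864. In GBP4 it was TTTCAATTTC, at chr1:89198937-89198946. Counted from the RefSeq start, with no position 0, the matches lay at -127 to -118 in GBP1, at 3 to 12 in GBP3 and at -4 to 6 in GBP4. The outermost GENCODE start lies 152 bases upstream of the RefSeq start in GBP1, 28 bases upstream in GBP3 and at the same base in GBP4. Counted from those starts, the matches lay at 26 to 35 in GBP1 and at 31 to 40 in GBP3, downstream of the start in both. The best alignment of the GBP1 and GBP3 windows, with gaps allowed, held 140 aligned bases, of which 122 (87.1%) were identical.

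Other letters were searched in the same windows of 250 bases before to 50 after the start. The GAS letters TTCNNNGAA, held by 7.66% of all promoters, matched in GBP3 alone of the 5 entries (TTCCTTGAA, -15 to -7). Only this exact spelling was searched. A promoter without a match, that of GBP1 among them, may therefore hold a GAS element spelled otherwise. The letters TGANTCA are a broad spelling of the AP-1 site, which usually has C or G in the middle, and 7.71% of all promoters held them. They matched in GBP3 (TGAGTCA, -23 to -17) and in GBP6 (TGATTCA, -151 to -145), the latter without the usual middle base. None of the 3 motifs matched in GBP7. The ISRE letters were in 15 of 20 promoters of a list of type I interferon genes, in 6 of 18 of a list of interferon gamma genes and in 0 of 8 of the genes that flank the GBP cluster. A match of letters is a description of the sequence, and no binding was measured here.

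The libraries held between 29699741 (BRG1 sample 3) and 63613710 (BRG1 sample 1) estimated counts, so 3 counts correspond to 0.0472 to 0.101 CPM, counts scaled to a library total of 1000000. SMARCA4, the transfected gene, averaged 1551 ± 119 normalised counts in the Control group and 88773 ± 17220 in the BRG1 group (SD, n = 3 each), the latter with transcripts of the plasmid included. Its level was 108655, 79075 and 78589 in BRG1 samples 1 to 3. Normalised counts are estimated counts, rounded and divided by DESeq2's size factor of each library. Of the 15991 genes that DESeq2 tested, 11.0% were called higher and 1.84% lower with BRG1 at an adjusted p under 0.05. The edgeR test called 9.57% of its 14246 genes higher and 1.02% lower. With the replicate number as a block these shares were 13.4% higher and 6.62% lower in DESeq2, and 13.7% higher and 5.68% lower in edgeR.

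GBP1, GBP2, GBP3, GBP4 and GBP5 rose with BRG1, by between about 20-fold (GBP4) and 124-fold (GBP2) where a fold could be given. DESeq2 and edgeR each called these 5 of the 7 members, against 11.0% and 9.57% of all genes tested. The low-count filter of edgeR asks in 3 samples for the CPM that 10 counts make in a library of median size. GBP1 alone met it in the Control samples. GBP2, GBP3, GBP4 and GBP5 met it through BRG1 samples, so the count of calls describes the family and is not independent of the filter. None of the members was called lower, and none had an unadjusted p under 0.05 in that direction in DESeq2 or edgeR. Every BRG1 sample lay above every Control sample in 5 of 7, a pattern that 15.4% of the 18096 genes with a count showed. GBP6 and GBP7 had too few counts for an adjusted p.

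GBP1, the family member that starts the coat on bacteria, had normalised counts of 56.0, 51.6 and 28.0 in Control samples 1 to 3. In BRG1 samples 1 to 3 they were 5081, 3513 and 761. The groups did not overlap, and BRG1 sample 3 lay well below the other BRG1 samples. The mean went from 45.2 ± 15.1 to 3118 ± 2187 (SD, n = 3 each), a log2 fold change of 6.11 (SE 0.78, DESeq2 adjusted p = 2.0e-13, edgeR adjusted p = 0.00143). Within replicate numbers 1 to 3 the fold was 90.7, 68.1 and 27.2, so the rise held in each number but differed in size. SMARCA4 RNA, plasmid transcripts included, was nearly equal in BRG1 samples 2 and 3, which differed in GBP1. BRG1 protein is not part of these data, and a link between SMARCA4 and GBP1 levels was not tested.

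GBP2, a prenylated member that joins the GBP1 coat, was at 6.09, 5.86 and 3.79 in Control and at 917, 705 and 279 in BRG1 samples. Its log2 fold change was 6.96 (SE 0.57, DESeq2 adjusted p = 2.8e-32, edgeR adjusted p = 2.6e-04), a fitted fold of 124.2. GBP2 thus went from a few counts per library to at least 279 normalised counts in each BRG1 sample, with BRG1 sample 3 again the lowest.

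GBP3, which acts with GBP1 in activating caspase-4, was at 11.0, 11.7 and 7.57 in Control and at 1330, 1214 and 697 in BRG1 samples. The spread among BRG1 samples was narrower than for GBP1, at 1080 ± 337 (SD, n = 3). Its log2 fold change of 6.78 (SE 0.40) had the smallest adjusted p of the family (DESeq2 1.6e-61, edgeR 6.3e-05), and the fold within numbers was 121, 103.5 and 92.1.

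GBP4, another member of the coat, was at 19.5, 23.5 and 4.54 in Control and at 393, 279.9 and 233 in BRG1 samples. Control sample 3 was the lowest of its group, and no BRG1 sample came near the Control range. The log2 fold change was 4.30 (SE 0.50, DESeq2 adjusted p = 3.7e-16, edgeR adjusted p = 0.00202). The fold within numbers was 20.2, 11.9 and 51.3, so GBP4 had its largest fold in replicate 3, where GBP1, GBP2 and GBP3 had their smallest. Differences in fold between members were not tested.

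GBP5, a prenylated member known for its part in inflammasome activation and furin inhibition, was at 1.22, 1.17 and 0.757 in Control, which is at or under 3 counts in each library. In BRG1 samples it was at 76.2, 56.5 and 29.9. Set against 3 counts per library, GBP5 was at least 17.2-fold higher with BRG1 (DESeq2 adjusted p = 2.8e-07, edgeR adjusted p = 9.4e-04).

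GBP6 and GBP7, the least studied members in human cells, stayed at or near 0. GBP6 had no count in any Control sample, which allows a level of up to 0.0488 to 0.0790 CPM there. In BRG1 samples it had 3.99, 2.00 and 0 estimated counts. GBP7 had 1.87 estimated counts in Control sample 3 and 0 in the others. A change in either gene was not detectable at this depth.

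**Figure D1:**
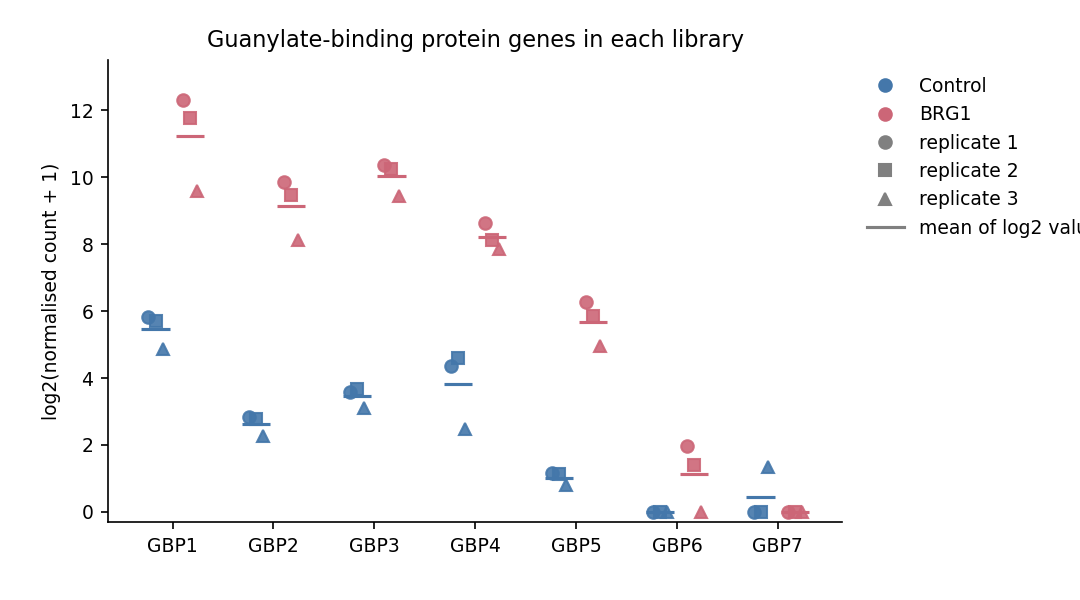
Level of each GBP gene in each sample, as log2(normalised count + 1), for 3 Control and 3 BRG1 samples, with a bar at the mean of the log2 values. GBP1 to GBP5 lie higher in every BRG1 sample than in any Control sample, and GBP6 and GBP7 lie near 0 in both groups.

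Members share sequence, and salmon divides reads that fit several transcripts by a model, which can move counts between close relatives. Of the 78-base windows of GBP1 transcripts, 2.65% also occur in another gene, namely the pseudogene GBP1P1 or GBP3. The share was 7.61% for GBP2, nearly all of it with GBP7, and 22.4% for GBP7, all with GBP2. It was 0.979% for GBP3, 0.957% for GBP4 and 0 for GBP5 and GBP6. The libraries do not keep strand, so antisense transcripts over these exons would add to the values.

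Levels of different members were compared as normalised counts per kilobase (kb) of exon. In BRG1 samples the order was GBP1 at 511 ± 358, GBP3 at 252 ± 78.6, GBP2 at 87.7 ± 45.0, GBP4 at 49.2 ± 13.4 and GBP5 at 4.94 ± 2.12 per kb (SD, n = 3 each). The ranges of GBP1 and GBP3 overlapped, as did those of GBP2 and GBP4, whereas every value of GBP3 lay above every value of GBP2. Per kb of coding sequence the order of the means was the same, but GBP2 and GBP3 then overlapped as well, with GBP2 reaching 517 and GBP3 starting at 390.5. In Control samples GBP1 was also the highest at 7.41 ± 2.47 per kb, followed by GBP4 at 2.58 ± 1.62, GBP3 at 2.35 ± 0.516 and GBP2 at 0.726 ± 0.176.

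The make-up of the family differed between samples. GBP1 held 57.9%, 53.1% and 55.2% of the summed per-kb level in Control and 62.1%, 57.1% and 34.01% in BRG1 samples. GBP3 went from 16.1%, 17.2% and 21.3% to 23.1%, 28.1% and 44.4%, and in BRG1 sample 3 it exceeded GBP1, at 162.7 against 124.7 per kb. That order turned per kb of coding sequence, at 390.5 for GBP3 against 428.6 for GBP1, so it rests on the length used. The share of GBP2 was 5.31%, 5.10% and 6.30% in Control and 9.46%, 9.69% and 10.5% in BRG1 samples. For GBP2 and GBP3 the groups did not overlap. GBP4 held 8.90% to 23.97% in Control, with replicate 3 the lowest, and 4.77%, 4.52% and 10.3% in BRG1 samples, so its groups overlapped through replicate 3. These shares sum to the whole within a sample, so the members' shares are not independent, and they were not tested.

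**Figure D2:**
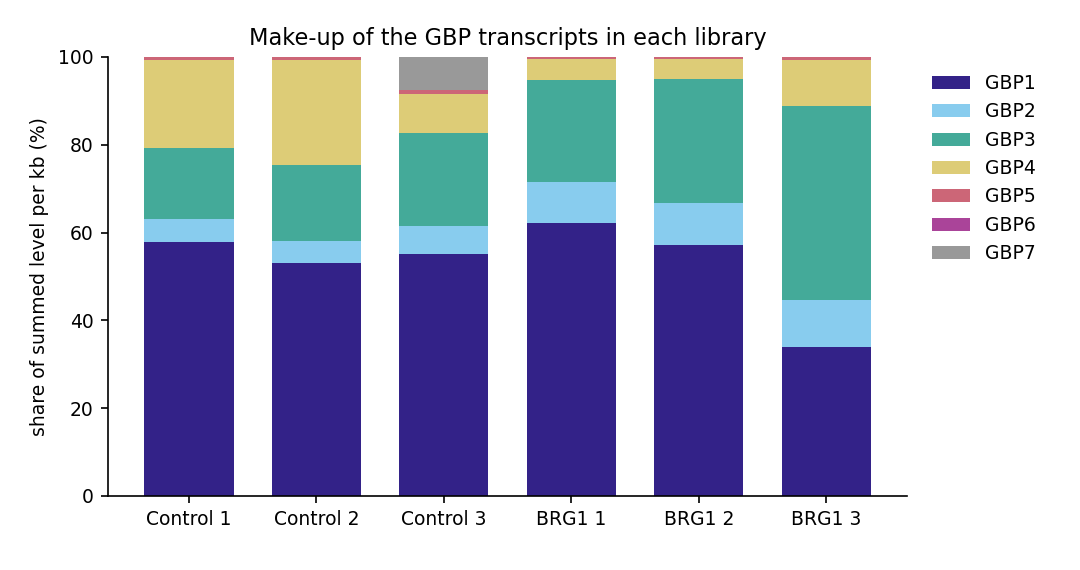
Share of each GBP gene in the summed normalised count per kb of exon, in percent, for each of the 6 samples. GBP1 is the largest share except in BRG1 sample 3, where GBP3 holds 44.4% and GBP1 34.01%, an exception that is absent per kb of coding sequence.

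Summed over the 7 members, the family took 2.00, 2.01 and 0.986 CPM in Control and 169, 127.6 and 45.1 CPM in BRG1 samples. The means were 1.67 ± 0.588 and 113.9 ± 63.1 CPM (SD, n = 3 each). The difference was 5.26 on the scale of log2(CPM + 1). A two-sided exact permutation test gave p = 0.1, the smallest that 3 samples against 3 allow, so this test cannot reach 0.05 here.

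The genes that flank the cluster were compared to see how far the rise extended along the chromosome. Of 8 neighbours, 1 was called higher in both tools, beside 11.0% (DESeq2) and 9.57% (edgeR) of all genes tested. It was LRRC8D, a subunit of volume-regulated anion channels. LRRC8D lies 755.65 kb from the GBP1 start and went from 890 ± 42.6 to 1882 ± 553 (SD, n = 3 each), a log2 fold change of 1.08 (SE 0.24, DESeq2 adjusted p = 6.9e-05). The remaining neighbours had log2 fold changes between -0.28 and 0.06 and were not called. Their median, with LRRC8D, was -0.05, close to the -0.01 of all genes tested. CCBL2 and RBMXL1 overlap on the same strand, so their values are not separate measurements.

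**Figure D3:**
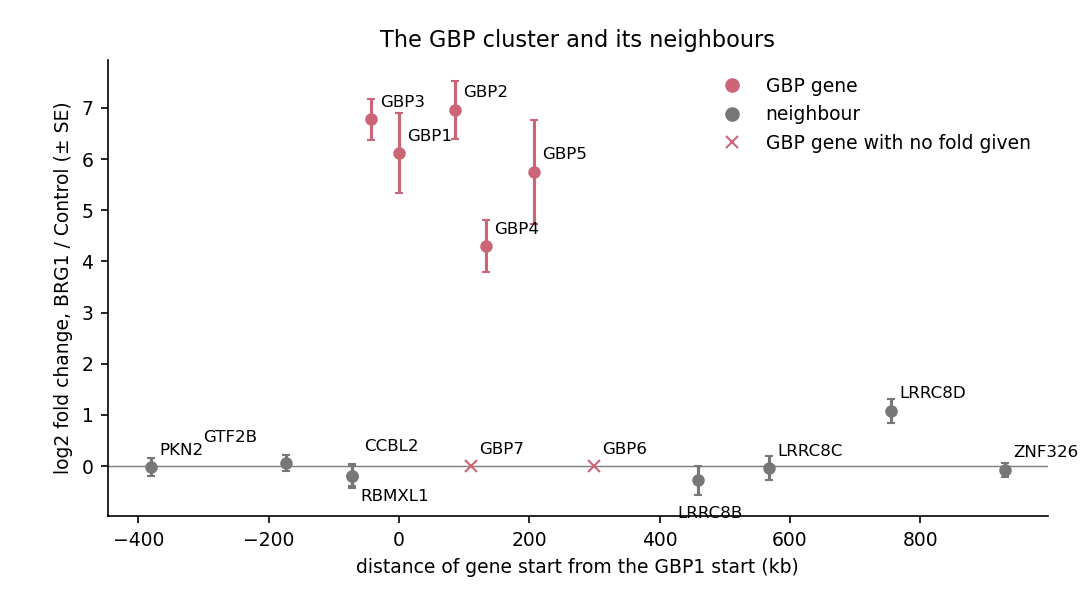
Log2 fold change (BRG1 / Control, bars ± SE) of the GBP genes and their neighbours against the distance of each gene's start from the GBP1 start, in kb. Called GBP genes lie between 4.30 and 6.96, the GBP5 point is a fitted value with Control at the floor, crosses mark GBP6 and GBP7, for which no fold is given, and among the neighbours LRRC8D stands at 1.08.

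Among 10 interferon ligands, the signals that induce GBP genes, IFNB1 rose. This gene encodes interferon beta. It was at 0, 1.17 and 0 in Control and at 79.1, 61.5 and 31.3 in BRG1 samples, at least 18.2-fold higher (DESeq2 adjusted p = 6.8e-07, edgeR adjusted p = 0.00139). IFNG, which encodes interferon gamma, the classical inducer of GBP genes, was at 0, 0 and 5.30 in Control and at 0, 0.831 and 5.97 in BRG1 samples (DESeq2 adjusted p = 0.979). Its counts came mostly from replicate 3 in both groups. Of the 5 ligands tested, 1 was called higher and 0 lower, the remainder having few or no counts.

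The interferon receptors and their kinases were well measured apart from IFNLR1, which had almost no counts, and showed no call without the replicate number. Of 8 tested, DESeq2 and edgeR called 0 in either direction, with 1 higher at an unadjusted p under 0.05 in each tool and a median log2 fold change of 0.07. With the replicate number as a block, 2 were called higher, namely IFNGR1, a chain of the interferon gamma receptor, at 0.38 (adjusted p = 0.0167), and the kinase JAK1 at 0.49 (adjusted p = 0.0045). Both are named after their values were seen.

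Of the 12 interferon transcription factors tested, DESeq2 called 5 higher and edgeR 4, and none lower. IRF9, which guides the type I complex to DNA, rose by 2.13 on the log2 scale (adjusted p = 1.1e-52), and its partner STAT2 by 1.33 (adjusted p = 2.8e-12). BATF2, a basic leucine zipper factor induced by interferon, had the largest change of the list, at 4.57 (SE 0.26, adjusted p = 2.3e-66). With the replicate number as a block 8 factors were called higher.

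IRF1, the factor through which interferon gamma induces many GBP genes, was called or not depending on whether the replicate number was in the fit. It was at 6400, 5760 and 570 in Control and at 14244, 16698 and 2233 in BRG1 samples. The groups overlapped, since replicate 3 was low in both. The log2 fold change was 1.38 (SE 1.13) and was not called (DESeq2 adjusted p = 0.586, edgeR adjusted p = 0.487). Within numbers the fold was 2.23, 2.90 and 3.92. With the replicate block the log2 fold change was 1.55 (SE 0.16, DESeq2 adjusted p = 1.1e-21, edgeR adjusted p = 5.7e-04). GBP1, GBP2, GBP3, GBP4 and GBP5 were likewise each lowest in replicate 3 of both groups. A link between IRF1 and GBP levels was not tested.

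**Figure D4:**
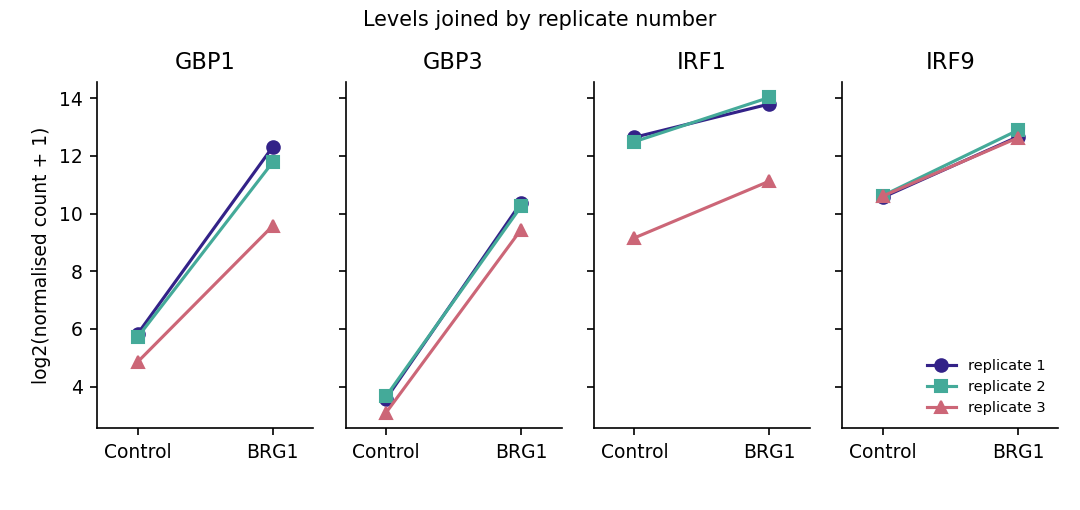
Levels of GBP1, GBP3, IRF1 and IRF9 as log2(normalised count + 1) in Control and BRG1 samples, with lines joining samples of the same replicate number. Each line rises, and replicate 3 is lowest for IRF1, GBP1 and GBP3 in both groups.

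Genes that limit interferon signalling rose in part. Both tools called 2 of the 5 tested higher and 0 lower. USP18, which blocks the type I receptor, rose by 3.50 on the log2 scale (adjusted p = 7.8e-71), and SOCS1, an inhibitor of JAK kinases, rose by 1.92 (adjusted p = 0.00276).

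Other large GTPases of the same superfamily mostly did not pass the test. Of 14 tested, 2 were called higher, the antiviral proteins MX2 and MX1, and 0 were called lower. MX2 had no count in Control, was at 365 ± 141.5 (SD, n = 3) with BRG1, and so was at least 115.95-fold higher. MX1 rose by 3.07 on the log2 scale (adjusted p = 0.00122). The median log2 fold change of the list, which also holds atlastins, dynamins and mitofusins, was -0.05. MFN1, a mitofusin, was called lower with the replicate block at -0.33 (adjusted p = 0.0396), and it is named after its value was seen. Without the block, edgeR gave 1 and DESeq2 gave 0 members lower at an unadjusted p under 0.05.

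The enzymes that add the lipid anchor to GBP1, GBP2 and GBP5, or act after it is added, were measured in every sample and none was called. The farnesyltransferase subunits FNTA and FNTB had log2 fold changes of -0.21 (SE 0.15) and 0.26 (SE 0.29), and PGGT1B, a subunit of the geranylgeranyl enzyme, had -0.05 (SE 0.29). Of 6 tested, DESeq2 and edgeR each gave 0 at an unadjusted p under 0.05 in either direction.

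Genes that act with the GBP coat, in the inflammasome or on bacteria, rose in large part. Of 19 tested, DESeq2 called 12 higher and edgeR 10, and neither called any lower, with a median log2 fold change of 2.29, or 2.00 with the 2 genes at the Control floor set to their bounds. CASP4, the caspase recruited to the coat, rose from 82.8 ± 18.0 to 330 ± 138 (SD, n = 3 each), a log2 fold change of 2.00 (SE 0.38, DESeq2 adjusted p = 2.2e-06). GSDMD, the pore-forming protein that caspase-4 cleaves, had at most 1.45 normalised counts in any sample. The inflammasome adaptor PYCARD had at most 2.27 in Control and 0 in BRG1 samples, and the sensor AIM2 at most 3.63 in any sample. NLRP3, another sensor, was not called (DESeq2 adjusted p = 0.356). PYCARD, AIM2 and NLRP3 are named after their values were seen. IL1B and IL18, cytokines matured by inflammasomes, rose by 7.30 (adjusted p = 8.1e-33) and 6.67 (adjusted p = 6.3e-25) on the log2 scale. APOL1, a trypanosome-killing apolipoprotein, rose by 6.82 (adjusted p = 2.8e-35). SFN, the 14-3-3 protein sigma, rose by 5.52 on the same scale.

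Of 20 interferon gamma genes tested, DESeq2 called 11 higher and edgeR 10, and neither called any lower. Their median log2 fold change was 2.22, or 2.06 with the 5 genes at the Control floor set to their bounds. In the group mean, UBD, a ubiquitin-like modifier, was at least 187.9-fold higher, and CXCL11, a chemokine for T cells, at least 23.2-fold higher. UBD was at 854, 811 and 109 normalised counts in BRG1 samples 1 to 3. The chemokine CXCL10 rose by 5.70 and CD274, the ligand of the PD-1 receptor, by 5.73 on the log2 scale. Among the genes not called were CIITA at -0.28 (adjusted p = 0.91) and IDO1 at 2.21 (adjusted p = 0.181). CXCL9 had at most 1.66 normalised counts in any sample. CIITA, IDO1 and CXCL9 are named after their values were seen. This list shares IRF1, IRF8, SOCS1 and BATF2 with the lists above.

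Both tools called 24 of 25 type I interferon genes higher. The median log2 fold change was 5.42, beside -0.01 for all genes tested. IFITM1, a membrane protein that blocks virus entry, went from 1.19 ± 1.17 to 1684 ± 919 (SD, n = 3 each), at least 535-fold higher. IFI44L and IFI44, interferon-induced proteins, went from 2.23 ± 1.95 to 1926.5 ± 949 and from 1.56 ± 2.71 to 1249 ± 611. EPSTI1 was the exception, named after its value was seen, at a log2 fold change of -1.09 (adjusted p = 0.292). MX1, MX2 and USP18 are also in this list. Among the ligands, transcription factors, feedback genes, coat partners, interferon gamma genes and type I interferon genes, DESeq2 and edgeR gave 0 genes lower even at an unadjusted p under 0.05.

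**Figure D5:**
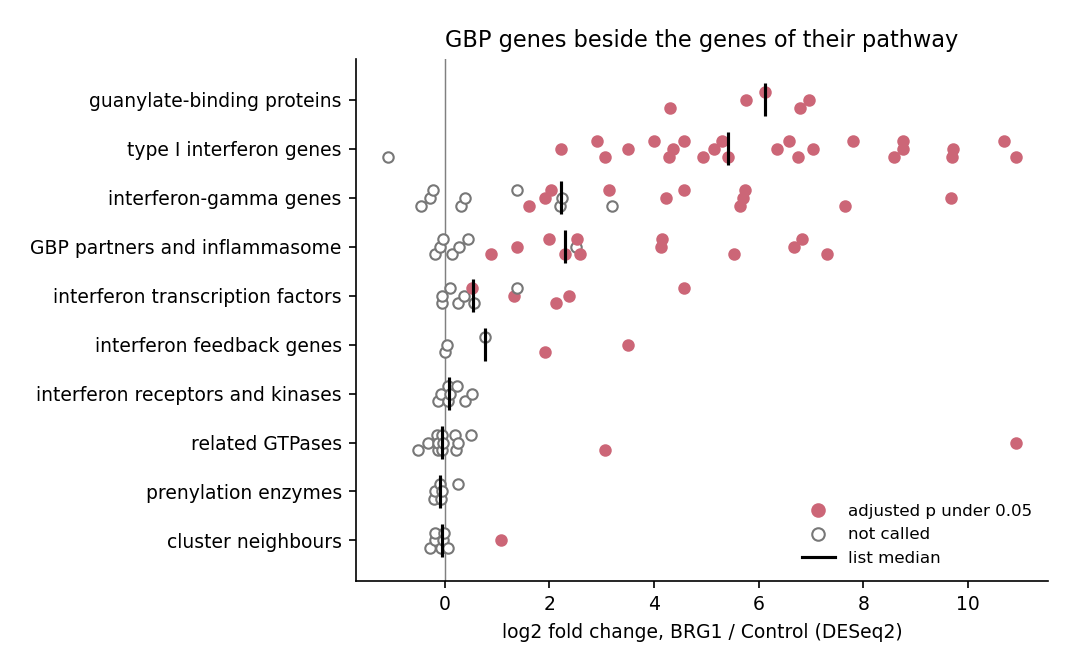
Log2 fold change (BRG1 / Control) of each tested gene, one row per list, with filled points for calls and a bar at the list median. The GBP genes lie within the range of the type I interferon genes, prenylation enzymes and neighbours lie around 0 apart from LRRC8D, and values of genes with Control at the floor are fitted and are not bounds.

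Markers of other cell types were examined because GBP genes are well expressed in immune and endothelial cells. Of 7 immune markers tested in DESeq2, 1 was called higher, beside 11.0% of all genes tested. It was LYZ, which went from 1.06 ± 1.25 to 19.0 ± 4.57 (SD, n = 3 each). With the replicate block 2 were called, CD68 being the other. The summed level of the immune markers was 1869 to 2884 in Control and 2450 to 3949 in BRG1 samples. CD3E, which defines T cells, was at 0.831 normalised counts or fewer in every sample, and PTPRC was at 336 to 669 in Control and 360 to 722 in BRG1 samples.

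Of 6 endothelial markers, 3 were called higher. VWF, the von Willebrand factor, rose from 44.8 ± 32.0 to 3498 ± 238 and TEK, an angiopoietin receptor, from 480 ± 80.5 to 942 ± 135 (SD, n = 3 each). CDH5, the endothelial cadherin, was at least 45.4-fold higher in the group mean, at 272, 114 and 43.3 in BRG1 samples 1 to 3. The summed level of the endothelial markers was 1734 to 2642 in Control and 6425 to 6843 in BRG1 samples. Most of the Control sum was KDR, at 1294 to 2132 in Control and 1392 to 2305 in BRG1 samples, which was not called (DESeq2 adjusted p = 0.882). PECAM1 stayed at 37.3 or fewer, and neither it nor CLDN5 was called. PECAM1, KDR and CLDN5 are named after their values were seen. The part of immune or endothelial markers in the GBP result was not tested. Of 8 granulosa cell markers, 4 could be tested and 1 was called higher, the aromatase gene CYP19A1, and the summed level was 6377 to 9791 in Control and 4514 to 8636 in BRG1 samples. Most of that sum was WT1, at 6086 to 9466 in Control and 3592 to 7887 in BRG1 samples. AMH was at 227 to 398 in Control and 341 to 455 in BRG1 samples. WT1, AMH and INHA, the others tested, were not called and are named after their values were seen. FOXL2, a defining granulosa gene, had 1.22 normalised counts in Control sample 1 and 0 in all others.

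The genes whose log2 levels followed the mean of GBP1 to GBP5 most closely over the 6 samples included LMCD1 (Pearson r = 0.9994), IVL (0.9993), CXCL14 (0.9988) and CORO2B (0.9986). LMCD1 encodes a LIM domain protein, IVL the cornified envelope protein involucrin, CXCL14 a chemokine and CORO2B an actin-binding coronin. Of 11682 genes compared, 609 had an r over 0.95. The samples fall into the 2 groups by design, so a gene with a large difference between groups has a high r whatever else it does, and the values are a description.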

How the data were processed

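RNA was sequenced from 3 Control and 3 BRG1 samples of COV434 cells, which the design describes as biological replicates, from 500 ng of RNA in libraries that do not keep strand, as read pairs of 78 bases. The authors checked reads with FastQC 0.11.5, aligned them with STAR 2.5.3a to GRCh38, quantified transcripts with Salmon 0.8.2 and took sums per gene in tximport. What they deposited are estimated counts for each symbol (lengthScaledTPM), corrected for transcript length but not for library size, with totals of 29699741 to 63613710.

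These were rounded first. As in the study's methods, DESeq2 (1.42.0, in R 4.3.3) was the main tool, with its Wald test of BRG1 against Control without covariates, with median-ratio size factors, independent filtering and Benjamini-Hochberg adjustment over all genes. A gene was called at an adjusted p under 0.05. Genes for which DESeq2 gave no adjusted p were left without one. The edgeR quasi-likelihood test (version 4.0.16) is given beside it. Its genes reach, in 3 or more samples, the CPM that 10 counts make in a library of median size. Both were tested on simulated data, in which the false share was above the threshold for DESeq2 and below it for edgeR. Further alternatives were limma-voom (version 3.58.1), other normalisation and filters, a stricter threshold, the replicate block and leaving out each sample.

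Samples of the same number deviated together from their group means, with correlations of 0.522, 0.524 and 0.614 over 11686 genes, so the numbers were treated as pairs in the block. Groups with 3 counts or fewer in each library were treated as at the floor, and folds against them are lower bounds computed against 3 counts per library. The bounds use the mean of the BRG1 samples, so a single BRG1 sample can lie below them. Intervals of this kind cover counting error only. Promoters came from RefSeq and gene models from GENCODE release 44, which is not the release the authors used.

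The members and the gene lists were chosen with earlier results of these data known. All members are named. From each other list the called genes with the largest absolute log2 fold change are named, up to 4, together with IRF1, IFNG, IFNB1, FNTA, FNTB, PGGT1B, CASP4, GSDMD, SMARCA4 and called neighbours, and the 5 genes of mean normalised count of at least 100 most alike to the members of mean at least 10. Some genes that this rule names are not reported here.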

Additional observations from a re-analysis of the deposited data

How the results depend on the processing

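GBP1 to GBP5 kept their direction and stayed called under every alternative fit that was run. Of 489 values in all, 464 were kept, which for a count of calls means within 1.5 times and does not mean that no gene crossed the threshold. The log2 fold change of GBP1 was between 5.57 (without BRG1 sample 1) and 6.60 (without BRG1 sample 3), and its largest adjusted p was 0.0241, with limma-voom. That of GBP4 was between 3.82 (without Control sample 3) and 4.74 (without Control sample 2). The count of genes called lower depended most on the settings: 294 in DESeq2, 146 in edgeR, 169 in limma-voom, 130 at the stricter threshold of 0.01, 1035 under the replicate block and 809 with the block in edgeR. Leaving out 1 sample gave 117 (without BRG1 sample 2) to 596 (without BRG1 sample 3).

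With the replicate block, in DESeq2 and in edgeR alike, 2 receptors and kinases, 8 transcription factors and 2 immune markers were called higher and 1 related GTPase lower. Without it these counts were 0, 5, 1 and 0 in DESeq2 and 0, 4, 1 and 0 in edgeR. The block also brought IRF1 past the threshold, moved no other count of calls in the lists by over 1.5 times and changed the call of no gene named here beyond IRF1, IFNGR1, JAK1, MFN1 and CD68. Leaving out 1 sample gave 0 to 1 receptors and kinases called higher (1 without BRG1 sample 3), 1 to 2 feedback genes (1 without BRG1 sample 1 or 2), 0 to 2 immune markers (0 without BRG1 sample 2 and 2 without Control sample 1) and 1 to 2 granulosa markers (2 without Control sample 3). Genes near the floor, GBP5, GBP6 and GBP7 among them, are limited by depth. Transfection, plasmid and BRG1 were not varied separately, and interferon protein was not measured.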
